A study of Mus musculus with 6 samples.

Results

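The genes described here encode 10 products of the secretory, luminal layer of the mouse prostate, measured in RNA sequencing libraries of basal cells. They are Msmb, Pbsn, Sbp, Spink1 (also known as Spink3), Tgm4, Azgp1, Crym, Mmp7, Fgl1 and Ceacam10, chosen by name as lobe-related secretory genes. Crym is on that list although its protein is cytosolic. All 10 were found among the 25273 genes that had a value. Expression was set against duct region in 2 groups of 3 libraries, namely basal cells of proximal ducts and basal cells of distal ducts, both from C57BL/6 mice aged 8 to 12 weeks. Neither group carried a transgene or a treatment in the labels. The lobe of the ducts and the antibodies of the sort are not given in the labels. Nor is it stated that replicates came from different mice, so that p-values cover the spread among these libraries alone, and that spread may be technical.

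Prostate ducts hold a layer of luminal cells, which release proteins into the semen under androgen control, above a layer of basal cells that rest on the basement membrane. Mouse prostate lobes differ in what they secrete. Tgm4, a transglutaminase that forms the copulatory plug, is a product of the anterior and dorsal lobes, and Pbsn (probasin), a lipocalin, is best known from the dorsolateral lobes. Msmb, beta-microseminoprotein, is known from the lateral lobe, and Sbp, a spermine-binding protein, from the ventral lobe. Spink1, an inhibitor of trypsin-like proteases, is made in the male accessory glands, the seminal vesicle among them, as well as in the pancreas. Basal cells are not known as a main source of these proteins.

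The intervals deposited beside the values imply depths of 22300000 to 27200000 fragments in the proximal and 21900000 to 28100000 fragments in the distal libraries. FPKM, the unit of all levels here, divides the fragments of a transcript by its length and by the size of the library. Markers of basal cells were abundant throughout, with the keratins Krt14, Krt15 and Krt17 at 1634 FPKM or more in every library. Duct region separated along PC1 (47.2% of the variance in a principal component analysis). Along PC2 (25.4%) replicate 1 of either region lay away from replicates 2 and 3. In such bulk samples, fewer cells of a type and less RNA per cell cannot be told apart.

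Of the 10 products, 6 reached a mean of 1 FPKM and were tested, and 1 of these, Msmb, was higher in proximal basal cells. None was lower, and 5 did not pass (limma on log2(FPKM + 1), Benjamini-Hochberg adjusted p under 0.05). Msmb reached the mean of 1 FPKM through its proximal libraries alone. Across all 10255 tested genes, 7.02% passed in either direction, 4.52% as higher (464 genes) and 2.5% as lower (256 genes). The median log2 fold change was 0.28 over the 6 tested products and -0.01 over all tested genes. In 3 of the 6, namely Msmb, Pbsn and Azgp1, all proximal libraries lay above all distal ones. Groups free of overlap were found for 28.8% of the tested genes, with the proximal group above for 15.8% and below for 13.0%.

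**Figure D1:**
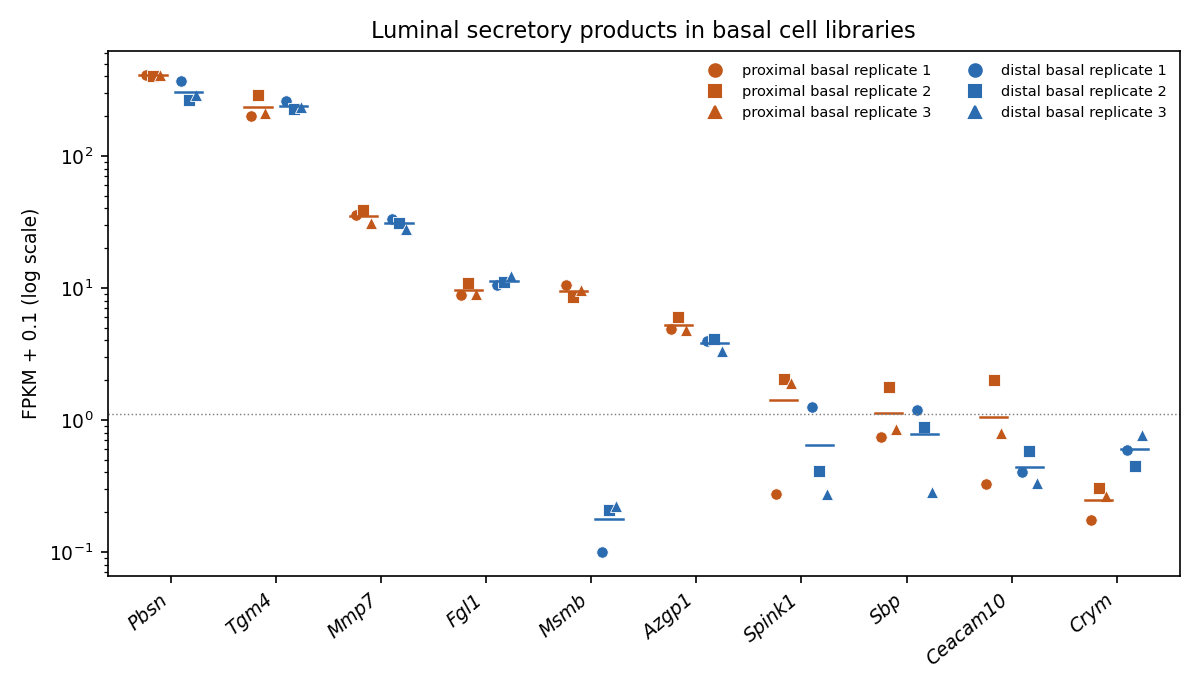
FPKM of the 10 products in each library, as FPKM + 0.1 on a log axis, with genes ordered by their mean. Each point is a library, each bar the mean of a group's 3 libraries, and the dotted line marks 1 FPKM. Pbsn and Tgm4 lie above 200 FPKM in every library, 4 genes lie near or below 1 FPKM, and Msmb is the gene whose groups stand far apart.

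Pbsn and Tgm4 were the most abundant of the products in both duct regions. Together they held 90.9% to 91.6% of the summed FPKM of the 10 genes in the proximal and 91.1% to 92.5% in the distal libraries. The 10 genes took 0.178%, 0.218% and 0.184% of the FPKM of all matched genes in the proximal libraries, against 0.172%, 0.144% and 0.149% in the distal libraries. Those shares did not overlap, but the summed FPKM of the 10 genes did, at 669 in proximal replicate 1 and 675 in distal replicate 1. The difference of the mean shares was 0.0383 percentage points. It was 0.0261 without proximal replicate 2.

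Pbsn was at 408, 403 and 412 FPKM in the proximal libraries, against 366, 263 and 286 FPKM in the distal libraries. The proximal libraries were close to each other, whereas distal replicate 1 stood above the other distal libraries. Its rank among all genes was 123 to 134 in the proximal and 167 to 216 in the distal libraries. Its mean was 408 ± 4.63 FPKM for proximal cells and 305 ± 54.1 FPKM for distal cells (SD, n = 3 each). This log2 fold change of 0.43 ± 0.14 (SE), with a 95% interval of 0.11 to 0.75 for this gene alone, missed the threshold over all genes (limma, adjusted p = 0.107). Pbsn lies on chromosome X (77837901 to 77853623, minus strand, mm10). The difference passed as higher in proximal cells without distal replicate 1 (log2 fold change 0.57, limma, adjusted p = 0.0185). It also passed without both libraries numbered 1 (limma, adjusted p = 0.00954) and after quantile normalization (limma, adjusted p = 0.0339). Without any other single library it did not pass, with adjusted p of 0.137 to 0.339 (limma). The lowest log2 fold change was 0.33, without distal replicate 2. Of 17 alternatives, 13 left the difference short of the threshold.

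Tgm4 was at 201, 289 and 210.3 FPKM in the proximal libraries, against 258, 225 and 236 FPKM in the distal libraries. The groups overlapped, with both the highest and the lowest value in proximal libraries. Mean levels were 233 ± 48.3 FPKM for proximal cells and 239.7 ± 17.0 FPKM for distal cells (SD, n = 3 each). On the log2 scale the difference was -0.05 ± 0.15 (SE), with a 95% interval of -0.41 to 0.30 (limma, adjusted p = 0.871). It was 0.04 without proximal replicate 1 and -0.22 without proximal replicate 2, and neither passed. Tgm4 lies on chromosome 9 (123034726 to 123067561, plus strand). A transcript of Zdhhc3 that overlaps the end of Tgm4 was listed at 0 in all 6 libraries.

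Within each library Pbsn exceeded Tgm4, by 2.03, 1.39 and 1.96 times in the proximal and by 1.42, 1.17 and 1.22 times in the distal libraries. The ratio of proximal replicate 2 lay among the distal ratios. Relative to the luminal keratins Krt8 and Krt18, summed, Pbsn stood at 20.5%, 22.8% and 21.9% in the proximal and at 16.1%, 17.0% and 17.7% in the distal libraries. On this scale distal replicate 1 no longer stood apart from the other distal libraries, and the groups did not overlap. Tgm4 stood at 10.1%, 16.4% and 11.2% of the same sum in the proximal and at 11.4%, 14.5% and 14.6% in the distal libraries, and its groups overlapped. Krt8 and Krt18 were at 1766 to 1988 FPKM, summed, in the proximal and 1550 to 2271 FPKM in the distal libraries. These keratin-scaled values are a description without a test.

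**Figure D2:**
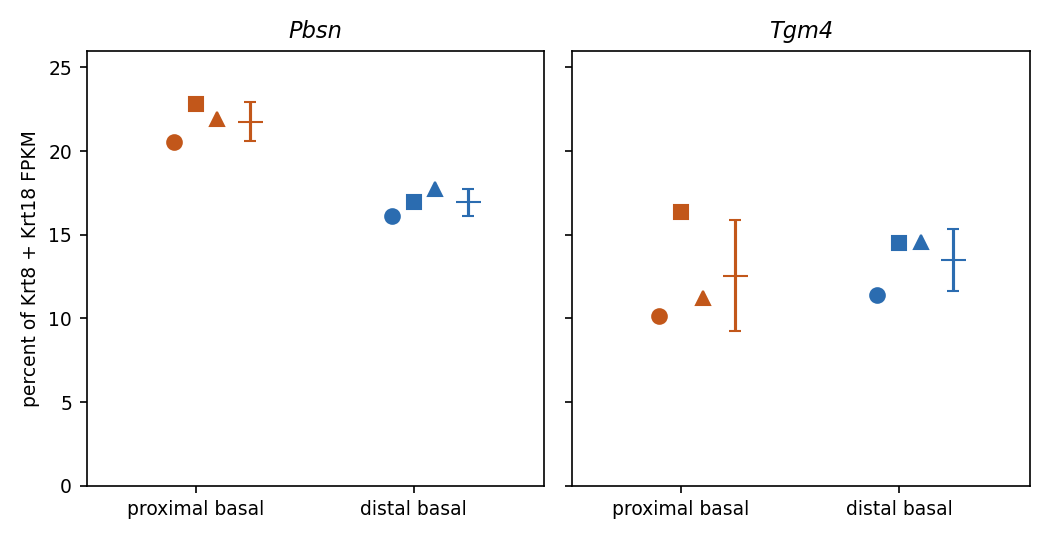
FPKM of Pbsn and Tgm4 as a percentage of the summed FPKM of Krt8 and Krt18 in the same library, with the axis from 0. Circles, squares and triangles are replicates 1, 2 and 3, and the bar beside them gives the mean and SD of 3 libraries. All 3 proximal values of Pbsn lie above its distal values, from 20.5% against at most 17.7%, while the groups of Tgm4 overlap.

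The promoters of the 3 most abundant products and of Ceacam10 are shown as the 250 bases before the RefSeq start nearest to the deposited transcript, on GRCm38.p6. They were searched for TATAAA, the core of the TATA element that places transcription start, on the gene's strand. They were also searched for AGAACA or its reverse complement TGTTCT, a half-site letter string of steroid receptor elements. Capitals mark these letters, and positions count back from -1, the base before the start. Pbsn is shown from chrX:77853501-77853750 (minus strand), Tgm4 from chr9:123034491-123034740 (plus strand), Mmp7 from chr9:7691840-7692089 (plus strand) and Ceacam10 from chr7:24776954-24777203 (plus strand).
Pbsn: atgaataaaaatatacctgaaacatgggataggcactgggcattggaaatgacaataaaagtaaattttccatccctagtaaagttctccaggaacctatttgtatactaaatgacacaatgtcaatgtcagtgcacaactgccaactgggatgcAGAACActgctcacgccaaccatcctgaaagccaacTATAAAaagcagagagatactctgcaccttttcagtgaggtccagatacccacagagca
Tgm4: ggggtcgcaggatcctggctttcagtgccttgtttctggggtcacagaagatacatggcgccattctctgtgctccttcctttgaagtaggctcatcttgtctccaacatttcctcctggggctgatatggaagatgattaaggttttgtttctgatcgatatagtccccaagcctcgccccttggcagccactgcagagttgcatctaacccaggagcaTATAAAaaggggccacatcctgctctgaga
Mmp7: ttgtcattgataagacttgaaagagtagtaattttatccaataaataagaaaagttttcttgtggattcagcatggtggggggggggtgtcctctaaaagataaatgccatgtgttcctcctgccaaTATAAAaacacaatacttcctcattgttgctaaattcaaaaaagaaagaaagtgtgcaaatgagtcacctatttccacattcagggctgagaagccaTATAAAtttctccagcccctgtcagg
Ceacam10: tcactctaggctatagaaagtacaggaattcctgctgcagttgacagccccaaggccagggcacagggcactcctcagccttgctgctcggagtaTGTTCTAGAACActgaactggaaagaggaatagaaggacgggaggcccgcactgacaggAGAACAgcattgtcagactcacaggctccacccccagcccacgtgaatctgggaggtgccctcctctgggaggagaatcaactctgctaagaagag

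TATAAA occurs at -59 in Pbsn, at -30 in Tgm4 and at -123 and -26 in Mmp7. AGAACA occurs at -95 in Pbsn. In Ceacam10 it occurs at -149 and -96, and TGTTCT at -155 directly adjoins the copy at -149. The windows of Tgm4 and Mmp7 hold no AGAACA or TGTTCT, and that of Ceacam10 holds no TATAAA. Of the windows not printed, that of Sbp holds TGTTCT at -64 and no TATAAA, and that of Azgp1 holds neither. The window of Ceacam10, a gene under a mean of 1 FPKM, holds the most half-site copies of the 6 searched. The printed windows therefore do not stand for the 10 products. The RefSeq start of Pbsn, which is also that of its deposited transcript, lies inside the longer GENCODE gene, so both marked strings of Pbsn fall within that gene model, as does the TGTTCT of Sbp. Over 32851 RefSeq promoter windows of the same length, 7.59% hold TATAAA and 16.1% hold the half-site letters on either strand. Of the 10 genes, 6 matched the RefSeq table, and Msmb, Spink1, Crym and Fgl1 had no entry. A match of letters is a description of sequence, not a binding site.

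Msmb was listed at 10.4, 8.38 and 9.54 FPKM in the proximal libraries, against 0, 0.108 and 0.122 FPKM in the distal libraries. The groups were separated by far more than their spread. Its deposited transcript overlaps no other, and the deposited intervals imply 84, 60 and 84 fragments in the proximal libraries, against 0, 1 and 1 fragments in the distal ones. Summed and scaled to depth, this is a ratio of 114 with a 95% exact binomial interval of 31.2 to 947, which covers counting error only. The log2 fold change was 3.28 ± 0.14 (SE, limma, adjusted p = 3.11e-05). Higher proximal levels passed without any one of the libraries, with adjusted p up to 0.000506. Msmb also passed with no expression filter (limma, adjusted p = 0.00101). On the log2(FPKM + 1) scale the change of a gene that is near 0 in a group is understated, and with a pseudocount of 0.1 it was 5.84. Msmb lies on chromosome 14 (32142023 to 32158370, plus strand, mm10).

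Markers of other cells stood beside this rise. Of 12 markers of proximal luminal cells, all tested, 9 were higher and none was lower, and their summed level was 1942 to 2281 FPKM in the proximal and 1066 to 1406 FPKM in the distal libraries. Their median log2 fold change was 2.29, and each had a value above 0 in all proximal libraries. Among the most abundant were Lcn2, a siderophore-binding lipocalin, and Clu, the chaperone clusterin. Of these, Lcn2 did not pass, and Clu rose to 339 ± 17.0 FPKM in proximal cells, against 188 ± 24.5 FPKM in distal cells (SD, n = 3 each, limma, adjusted p = 0.00736). Among 12 general luminal markers, 11 could be tested, of which 3 passed as higher and 2 as lower. Their summed level was 3049 to 3288 FPKM in the proximal and 2229 to 2913 FPKM in the distal libraries. That sum includes the keratin Krt19, whose mean rose from 193 FPKM in distal cells to 787 FPKM in proximal cells (limma, adjusted p = 0.000143). Krt18 and Krt8, which were more abundant than Krt19, did not pass (limma, adjusted p = 0.922 and 0.643). The gap between the sums was thus not shared by all luminal keratins. The part of luminal cells in the values of Msmb and of Pbsn was not tested.

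Mmp7, the matrix protease matrilysin of glandular epithelia, was at 35.3, 38.6 and 30.8 FPKM in the proximal libraries, against 33.4, 30.9 and 27.9 FPKM in the distal libraries. The groups overlapped, and the log2 fold change was 0.17 ± 0.12 (SE), with a 95% interval of -0.10 to 0.45 (limma, adjusted p = 0.421). The gene lies on chromosome 9 (7692090 to 7699585, plus strand), and a transcript of AV064505 that overlaps it on the other strand was listed at 0 throughout.

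Azgp1, zinc-alpha-2-glycoprotein, a protein of seminal fluid and fat tissue, was at 4.82, 5.96 and 4.71 FPKM in the proximal libraries, against 3.88, 3.97 and 3.25 FPKM in the distal libraries. Every proximal library lay above every distal one, by a small margin. That log2 difference of 0.39 ± 0.14 (SE), with a 95% interval of 0.07 to 0.71 for this gene alone, did not pass over all genes (limma, adjusted p = 0.136). Azgp1 lies on chromosome 5 (137981520 to 137990233, plus strand).

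Fgl1, a fibrinogen-like protein best known as a product of liver cells, was at 8.71, 10.7 and 8.94 FPKM in the proximal libraries, against 10.5, 11.0 and 12.2 FPKM in the distal libraries. Its groups overlapped at proximal replicate 2 and distal replicate 1. With a log2 fold change of -0.23 ± 0.12 (SE), with a 95% interval of -0.51 to 0.06, it did not pass (limma, adjusted p = 0.304). Fgl1 lies on chromosome 8 (41191434 to 41215156, minus strand).

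In proximal cells the order of level was Pbsn, Tgm4, Mmp7, then Fgl1 and Msmb, whose ranges overlapped, then Azgp1 and the 4 low genes. In distal cells it was Pbsn, Tgm4, Mmp7, Fgl1, Azgp1, the 4 low genes, whose ranges overlapped, and Msmb. The highest distal value of Msmb, 0.122 FPKM, lay below the lowest of any other product, 0.175 FPKM for Spink1. Both are from distal replicate 3 and rest on 1 implied fragment each. Their order follows transcript length, 521 bases for Msmb and 422 for Spink1. The lowest distal value of Pbsn, 263 FPKM, lay close to the highest of Tgm4, 258 FPKM.

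**Figure D3:**
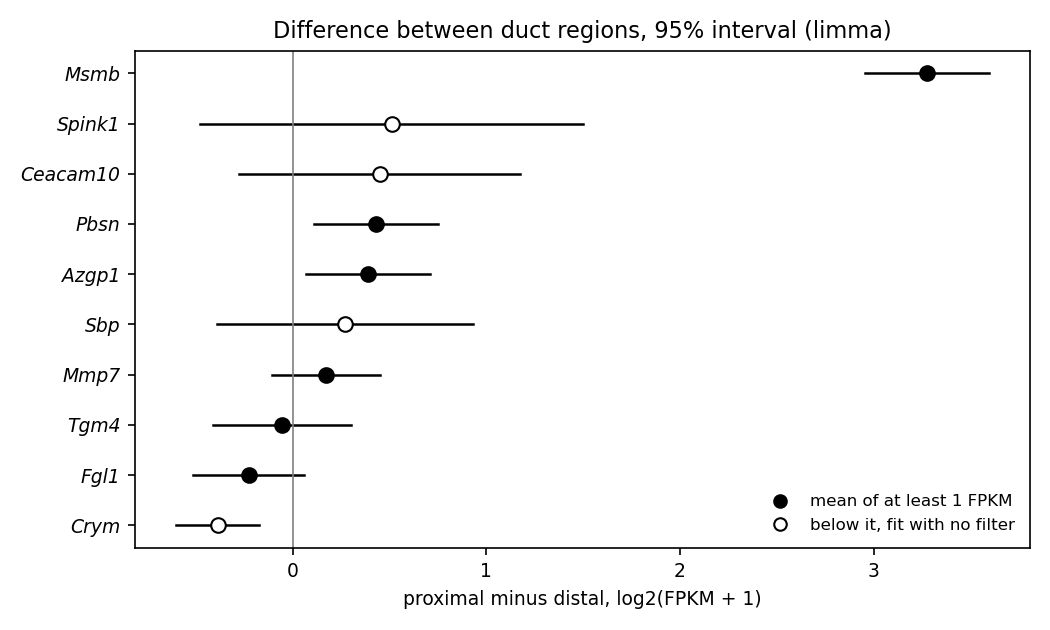
Difference between proximal and distal basal cells on the log2(FPKM + 1) scale for each product, with its 95% interval from limma, not adjusted over genes. Filled points are the 6 tested genes and open points the 4 genes under a mean of 1 FPKM, taken from the fit with no expression filter. Msmb stands at 3.28, and the other 9 lie between -0.39 and 0.51. This scale understates changes of genes under 1 FPKM.

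Spink1, Sbp, Ceacam10 and Crym did not reach a mean of 1 FPKM. Their tests come from the fit with no expression filter, in which 2.98% of 18570 genes passed in either direction, and none of these 4 passed. Spink1 was at 0.177, 1.95 and 1.79 FPKM in the proximal libraries, against 1.16, 0.312 and 0.175 FPKM in the distal libraries. The groups overlapped, and the intervals imply 1, 10 and 11 fragments in the proximal against 6, 2 and 1 fragments in the distal libraries. For Spink1, on chromosome 18, the log2 fold change was 0.51 ± 0.41 (SE, limma, adjusted p = 0.577), and 1.21 in the same unfiltered fit without both libraries numbered 1 (limma, adjusted p = 0.0187). That value rests on 10 and 11 fragments in the proximal against 2 and 1 fragments in the distal libraries, and it leaves out the libraries in which the order was the opposite.

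Ceacam10, a secreted member of the carcinoembryonic antigen family made in the mouse seminal vesicle, was at 0.229, 1.91 and 0.701 FPKM in the proximal libraries, against 0.307, 0.482 and 0.232 FPKM in the distal libraries. Proximal replicates 2 and 3 were highest, and proximal replicate 1 lay lowest of the 6. The intervals imply 5, 38 and 17 fragments in the proximal against 6, 12 and 5 fragments in the distal libraries. Its log2 fold change was 0.45 ± 0.30 (SE, limma, adjusted p = 0.490), and 0.11 without proximal replicate 2 (limma, adjusted p = 0.799). Ceacam10 lies on chromosome 7 (24777206 to 24784657, plus strand). The family has close copies, so reads may have been divided between them.

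Svs2, Svs4 and Svs5, products of the seminal vesicle, were highest in the same libraries, proximal replicates 2 and 3. On the wider seminal vesicle list, 9530002B09Rik and Sbpl did not follow these libraries. Svs5 was at 0.391, 107 and 239 FPKM in the proximal libraries, against 0.325, 0.860 and 0.393 FPKM in the distal libraries. Svs2 was at 0.0571, 4.16 and 191 FPKM in the proximal libraries, against 0.0640, 0.0501 and 0 FPKM in the distal libraries. Svs2 encodes a clotting protein of the seminal vesicle. Svs4 was highest in proximal replicate 2, at 51.3 FPKM against 3.35 FPKM in proximal replicate 3, and was at most 0.644 FPKM in the other 4 libraries. Over the 4 seminal vesicle markers fixed for this check, Svs2, Svs4, Svs5 and Svs6, the summed level was 0.553, 164 and 434 FPKM in the proximal libraries, against 0.505, 1.66 and 0.498 FPKM in the distal libraries. Of these, 3 were tested and none passed, and Svs6 was listed at 0 in 3 libraries. The part of this signal in the values of Spink1 and Ceacam10 was not tested.

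**Figure D4:**
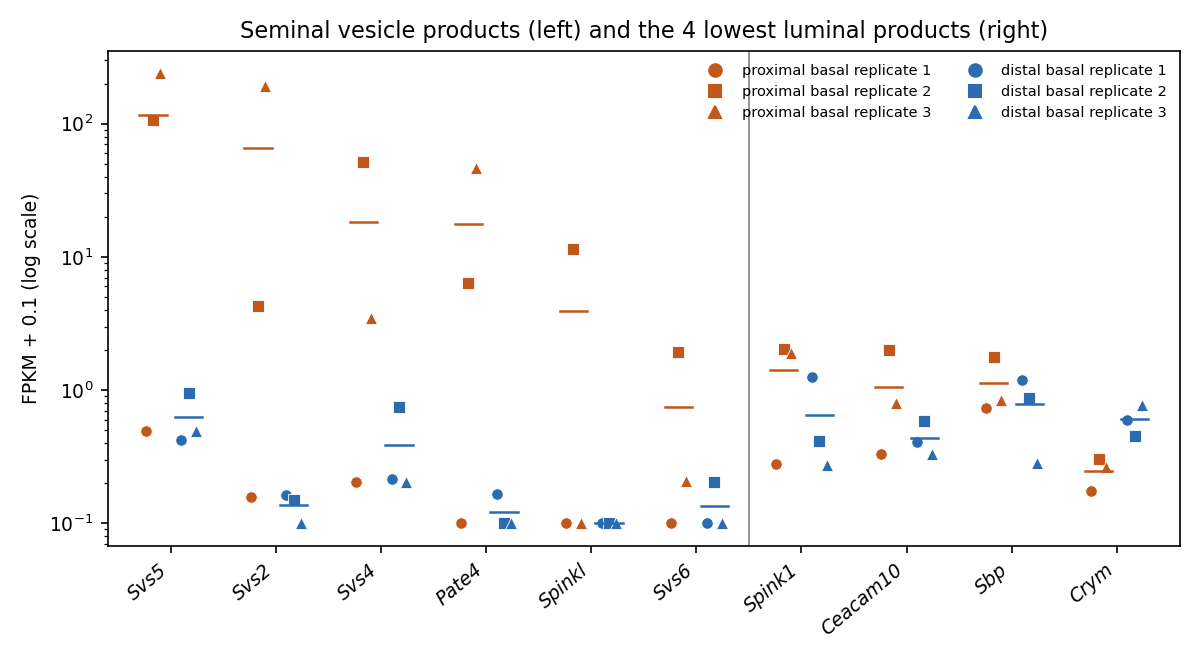
FPKM + 0.1 on a log axis for 6 seminal vesicle products, left of the line, and the 4 lowest of the luminal products, right of it. Other genes of the seminal vesicle list, 9530002B09Rik and Sbpl among them, are not shown. Points are libraries and bars the means of 3. Svs5, Svs2, Svs4 and Pate4 are high in proximal replicates 2 and 3 but not in proximal replicate 1 or the distal libraries. All 4 of the lowest luminal products, not only Spink1 and Ceacam10, are higher in the same pair of libraries than in proximal replicate 1.

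Sbp was at 0.640, 1.68 and 0.750 FPKM in the proximal libraries, against 1.09, 0.777 and 0.185 FPKM in the distal libraries, which rests on 10, 25 and 13 against 16, 14 and 3 implied fragments. The groups overlapped, and the log2 fold change was 0.27 ± 0.27 (SE, limma, adjusted p = 0.647), or 0.05 without proximal replicate 2. Sbp lies on chromosome 17 (23941672 to 23945607, plus strand) and Crym on chromosome 7 (120186380 to 120202111, minus strand). Crym encodes mu-crystallin, a cytosolic protein that binds thyroid hormone. It was at 0.0735, 0.203 and 0.167 FPKM in the proximal libraries, against 0.493, 0.350 and 0.672 FPKM in the distal libraries. All proximal values lay below all distal ones, and the log2 fold change was -0.39 ± 0.09 (SE, limma, adjusted p = 0.0814). This scale understates the change of such a low gene, and with a pseudocount of 0.1 it was -1.29 (limma, adjusted p = 0.107). The intervals of its main transcript imply about 1, 4 and 4 fragments in the proximal against 11, 9 and 17 in the distal libraries. Crym has 2 overlapping transcripts, so these counts are rough. An exact two-sided permutation test of Crym gave p = 0.1, the smallest that 3 against 3 libraries allow. The same test gave the same p for Msmb, Pbsn and Azgp1.

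Other prostate secretory products went both ways. Of 39 genes on that list, 38 had a value and 19 were tested, with 4 passing as higher, 3 as lower and the other 12 in neither direction, and with a median log2 fold change of 0.06. Another 10, all of the tissue kallikrein family, were listed at 0 in all 6 libraries. The 3 most abundant were Defb50, a beta-defensin, Cst3, the protease inhibitor cystatin C, and Clu. Defb50 was at 444, 251 and 285 FPKM in the proximal libraries, against 1612, 1252 and 1169 FPKM in the distal libraries (log2 fold change -2.07, limma, adjusted p = 0.00252). It thus stood in the direction opposite to Msmb, and it exceeded Pbsn in the distal libraries but not in proximal replicates 2 and 3. Cst3 averaged 505 ± 52.7 FPKM in proximal cells and 356 ± 53.7 FPKM in distal cells (SD, n = 3 each, limma, adjusted p = 0.0760).

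Of 17 further genes of the androgen response, 14 were tested and 2 passed, both as lower, with a median log2 fold change of -0.14. Hoxb13, a homeobox factor of the prostate epithelium and one of these genes, was at 20.7, 18.9 and 17.2 FPKM in the proximal libraries, against 26.7, 39.0 and 32.9 FPKM in the distal libraries. The groups did not overlap, and the log2 fold change was -0.75 (limma, adjusted p = 0.0250). Leaving out 1 library kept this call in 2 of 6 cases, without a replicate 1 of either group, with adjusted p up to 0.103 (limma). Of 24 genes of the secretory pathway, 23 were tested and none passed, with a median log2 fold change of -0.11. The most abundant was Hspa5, the chaperone BiP, at 936 ± 188 FPKM in the proximal group and 1334 ± 125 FPKM in the distal group (SD, n = 3 each, limma, adjusted p = 0.107).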

How the data were processed

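The files hold FPKM for 63241 transcripts of each library, made by the authors with bcl2fastq 1.8.3, TopHat and Cufflinks on mm10, per the submitters' processing notes. The name of the annotation and the versions of TopHat and Cufflinks are not given in the sources used here. Deposited coverage is a signal not scaled to depth and entered no test. RNA was amplified from random and oligo(dT) primers with the NuGEN kit, per the labels' protocols, and strand was not stated.

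Transcripts were matched to GENCODE M21 (GRCm38, the assembly of mm10) by span and spliced length, scored as the shared fraction of the span times the ratio of lengths, with a minimum of 0.5 and the next gene below 0.8 of that score (49609 transcripts). Another 3714 matched by exons of a single gene (at least 0.8 of their length). These held 93.9% of the FPKM. FPKM were summed per gene. Of 2000 shifted reference transcripts, 90.0% were assigned, 99.8% of them to the right gene.

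The main test, two-sided and without covariates, used limma 3.58.1 under R 4.3.3 with a variance trend. It took log2(FPKM + 1) of every gene whose mean reached 1 FPKM. The fit was tested on simulated data. Fragments behind a value were derived from the deposited interval, taken as 2 SD on each side. Of transcripts that overlap no other and have 0.5 to 30 implied fragments, 86.0% to 87.7% per library came within 0.1 of a whole number. They cover counting error only, and amplified reads are not independent molecules.

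All 10 products are named. Of each other list, at most 3 genes with the highest mean FPKM are named, together with genes a result turns on, namely Hoxb13 and the seminal vesicle genes. Some genes of these lists are not reported here. Members and lists were chosen with earlier results of these data known. Alternatives were other pseudocounts, filters, scalings, matches, left-out libraries and a block.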

Additional observations from a re-analysis of the deposited data

How the results depend on the processing

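Higher Msmb in proximal cells passed in all 16 alternatives that could test it, with log2 fold changes of 3.16 to 5.84. With a minimum of 5 FPKM its mean fell under the filter, so the number of luminal products called higher was 0. That number was 2, with Pbsn, after quantile normalization and without distal replicate 1, and 3, with Pbsn and Spink1, without both libraries numbered 1. There Spink1 passed the filter through its proximal libraries alone (limma, adjusted p = 0.0187 with no filter, chosen after seeing the data). Leaving out 1 library gave 1 to 2. No product was called lower in any setting. Pbsn had log2 fold changes of 0.33 to 0.57 and passed in 4 of 17 alternatives. Mmp7, Azgp1 and Fgl1 kept their sign and did not pass in any alternative, and Tgm4 changed sign in 4 of 17 without passing.

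Over all genes, leaving out 1 library gave 202 to 533 higher and 46 to 622 lower genes, lowest without proximal replicate 2 for higher genes and without distal replicate 2 for lower ones. Without both libraries numbered 1 there were 908 and 1385, with a minimum of 5 FPKM 273 and 168, and with no filter 137 lower genes (154 with a pseudocount of 0.1 as well, an alternative chosen after seeing the data, as was leaving out each library with no filter). The settings differ in how many genes or libraries enter; beyond that, the cause was not tested.

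Deviations of the same-numbered libraries from their group means correlated at 0.38, 0.04 and 0.29 across genes. Since not every pair exceeded 0.1, the numbers were not taken to pair the samples, although both libraries numbered 1 correlated best with each other. With the replicate number as a block (replicate block), 880 genes were higher and 732 lower, and 2 luminal products were higher, Msmb and Pbsn (limma, adjusted p = 0.0415 for Pbsn). Not every library correlated best with its own number: distal replicate 2 and proximal replicate 2 did not. At these depths a value of 0.1 FPKM of Msmb rests on 1 fragment, which limits the 4 low products.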

Other observations

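Pate4, a prostate and testis expressed protein, was listed at 0, 6.24 and 46.4 FPKM in the proximal libraries, against 0.0663, 0 and 0 FPKM in the distal libraries. Spinkl, a relative of Spink1, was listed at 11.4 FPKM in proximal replicate 2 and at 0 in the other 5 libraries. The RNA named 9530002B09Rik, placed on the seminal vesicle list, did not follow these libraries. It was at 100.3, 117 and 96.2 FPKM in the proximal libraries, against 104, 78.6 and 87.3 FPKM in the distal libraries (limma, adjusted p = 0.355).

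Of 5 endothelial markers, 4 were higher in proximal cells, with summed levels of 16.5 to 22.2 FPKM in the proximal and 2.01 to 10.2 FPKM in the distal libraries. Of 10 stromal markers, 9 were tested and 4 were higher, with summed levels of 703 to 772 FPKM in the proximal and 788 to 830 FPKM in the distal libraries, mostly from Dcn. Of 10 basal markers 4 were higher, of 5 urothelial markers 2 were tested and 1 was higher, and of 6 immune markers 2 were tested and neither passed. Neuroendocrine markers summed to at most 1.00 FPKM in any library, and none reached the filter. Of the 14 genes on the seminal vesicle list, 12 had a value, 6 were tested and none passed, although their median log2 fold change was 2.55. Apart from 9530002B09Rik, the high values lay in proximal replicates 2 and 3.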
